A study of Mus musculus with 24 samples.

Results

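The TGF-beta genes described here were 9 of the 16996 genes with values in RNA from CD45+ tumor-infiltrating cells: the ligands Tgfb1, Tgfb2, Tgfb3 and Inhba, the receptors Tgfbr1 and Tgfbr2, the signal transducer Smad3, the inhibitor Smad7 and the target Tgfbi. They were taken by gene symbol, each matched 1 row, and all 9 had a value in every sample. The study used RNA-sequencing to ask which transcriptional pathways change in the immune infiltrate of EMT6-hHER2 tumors after antibody-drug conjugate therapy. EMT6 is a murine breast cancer line of Balb/c origin, and EMT6-hHER2 is a clone of it grown from 1 sorted cell after a PiggyBac transposon had introduced human HER2. The tumors grew in the mammary fat pad of wild-type female Balb/c mice injected at 8 to 10 weeks of age. The age listed for the samples is 10 to 12 weeks.

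There were 4 groups of 6 mice, with 1 library per mouse and 24 samples in all, and every mouse carried the same tumor line. One group stayed untreated. One received trastuzumab (20 mg/kg), the unconjugated antibody against human HER2. One received T-DM1 (15 mg/kg), trastuzumab carrying a maytansinoid that blocks microtubules. One received T-PNU (1 mg/kg), trastuzumab carrying an anthracycline payload that damages DNA. Each was a single intravenous dose at a tumor volume of 80 mm3, and tumors were taken on day 10, so the groups differ in dose as well as in agent. By the study's methods, T-PNU tumors were smaller by then than at treatment. In its efficacy experiments trastuzumab and T-DM1 did not prevent growth. Tumor size at harvest is not given per sample, so its differences between groups cannot be told apart from those of agent. CD45+ cells were enriched with magnetic beads. The column headings carry a number for each sample whose meaning is not stated. It forms separate runs for untreated, for T-PNU and for trastuzumab with T-DM1, so these groups and whatever the runs stand for cannot be told apart. Samples are named by the codes in their labels: A1 to F1 untreated, G1 to D2 T-PNU, E2 to B3 trastuzumab and C3 to H3 T-DM1, where the letters run from A to H before the digit changes.

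TGF-beta is made as a latent precursor. It is held in a complex with its propeptide and a latent TGF-beta binding protein until integrins, thrombospondin 1 or proteases release it. The active dimer binds the type II receptor (Tgfbr2), which phosphorylates the type I receptor (Tgfbr1), and this in turn phosphorylates Smad2 and Smad3, which enter the nucleus with Smad4. Activin A, the dimer of the Inhba product, uses other receptors but the same Smads. In tumors TGF-beta is known for restraining cytotoxic T cells, favoring regulatory T cells and driving matrix production by fibroblasts.

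All values are normalized log2 expression levels as deposited. They appear to be shrunken gene by gene, so differences between them can be smaller than differences between counts, and the depth per sample is unknown. The sample medians ran from 8.73 to 8.87. Heatmaps of the study show 20 of the 24 samples and leave out 2 untreated ones (B1 and C1) and 2 trastuzumab ones (E2 and B3). Libraries differed in how closely they followed their group. By limma's sample weights, where a typical library has a weight near 1, B1 (0.216) and C1 (0.289) had the lowest weights of all, followed by T-PNU C2 (0.295) and E2 (0.380), while B3 had 0.715. Results are given over all 24 samples first and over the 20 samples beside them. The study states a high purity of the enriched cells by flow cytometry. In the libraries, Ptprc, which encodes CD45, lay between 14.0 and 15.5 in every sample, and markers of other cells were measured beside it: the summed level of 8 fibroblast and stromal markers lay between 14.7 and 17.1 and that of 5 epithelial or tumor cell markers between 12.4 and 14.1.

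Across all samples Tgfbi, a secreted matrix protein named for its induction by TGF-beta, had the highest level (mean 14.8, above 99.2% of all genes). Tgfbr2 followed at 13.2, and Tgfb1, the ligand typical of immune cells, at 12.0. Tgfbr1 lay at 11.9, Smad7 at 11.7, Smad3 at 11.2, Inhba at 11.1 and Tgfb3 at 9.99. Tgfb2 was lowest at 7.10, above 36.2% of genes. Compared per kilobase of exon, the level of Tgfb1 was 2.79 times that of Tgfb3 and 35.4 times that of Tgfb2, and the level of Tgfbr2 was 1.96 times that of Tgfbr1. Tgfb2 also varied most among the members, over a 4.47-fold range and with a standard deviation larger than that of 94.8% of genes, while Tgfbr2 varied least in range, over 1.55-fold.

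**Figure D1:**
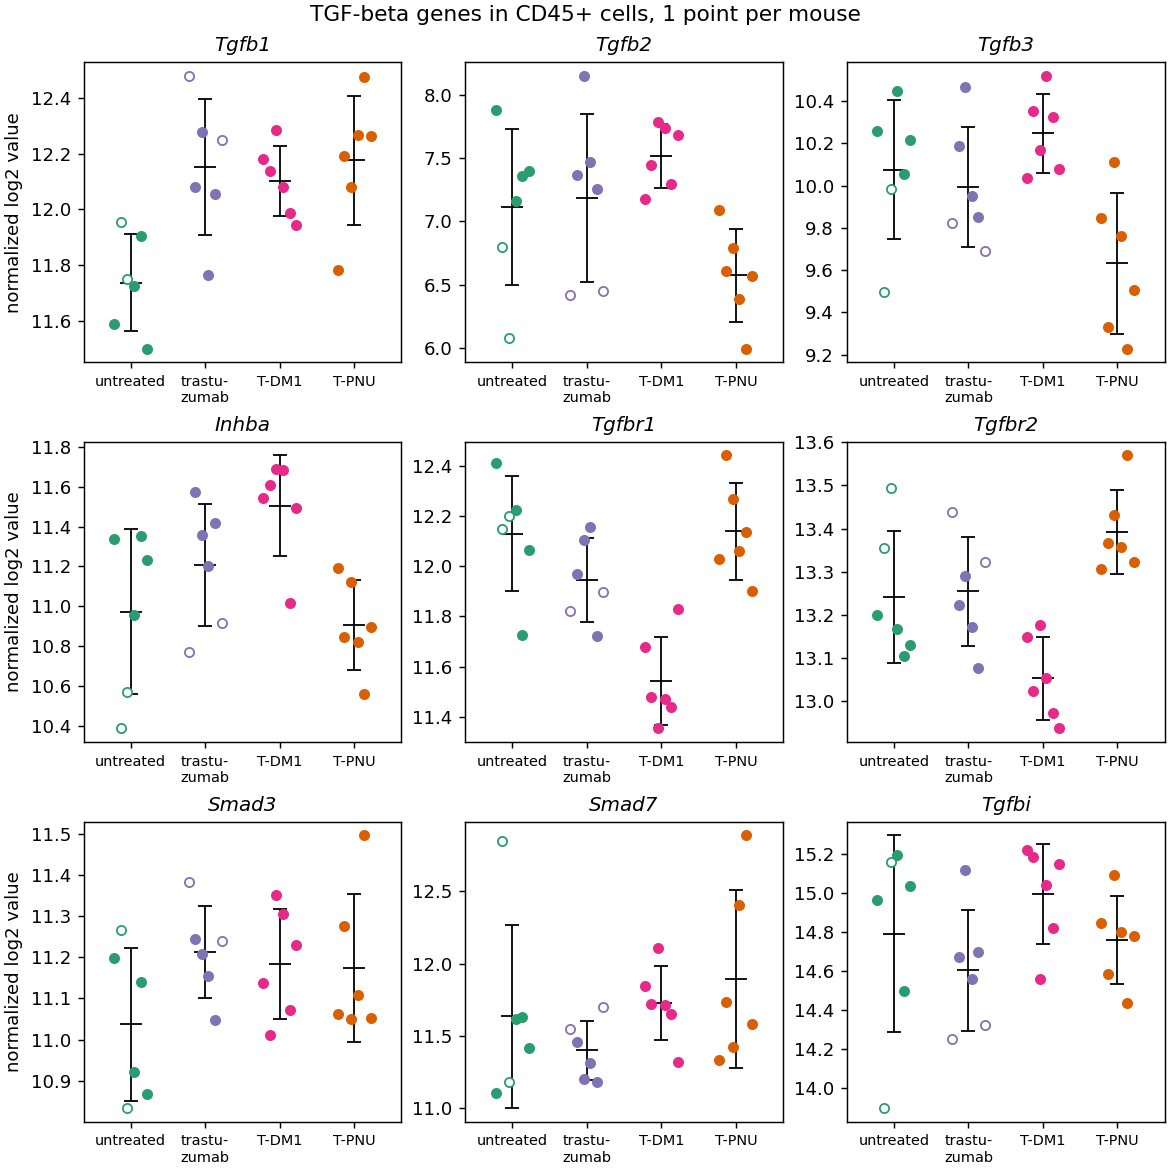
Normalized log2 level of the 9 TGF-beta genes (vertical axes) in each of the 4 groups, with 1 point per mouse, 6 per group, and the group mean with its SD in black; open points are the 4 samples not shown in the study's heatmaps, and the vertical axes differ between panels. T-PNU and T-DM1 values do not overlap for Tgfb2, Tgfbr1 and Tgfbr2, and 5 of 6 Tgfb1 values in each treated group lie above every untreated value.

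The ligands Tgfb2 and Inhba and both receptors, which moved in opposite directions between the T-PNU and the T-DM1 group, are shown with the bases just upstream of their start sites to let their promoters be compared. The sequences are from RefSeq on GRCm38.p6, each 250 bases, 5′ to 3′ on the strand of the gene and ending at the base before the annotated start. Capitals mark TATAAA, the core of a TATA box, CAGAC, a letter string that Smad3 and Smad4 can bind, and GGGCGG, the core of an Sp1 box, all searched on both strands. Tgfb2 is at chr1:186705990-186706239 (minus strand), Inhba at chr13:16011601-16011850 (plus strand), Tgfbr1 at chr4:47352972-47353221 (plus strand) and Tgfbr2 at chr9:116175364-116175613 (minus strand).
Tgfb2: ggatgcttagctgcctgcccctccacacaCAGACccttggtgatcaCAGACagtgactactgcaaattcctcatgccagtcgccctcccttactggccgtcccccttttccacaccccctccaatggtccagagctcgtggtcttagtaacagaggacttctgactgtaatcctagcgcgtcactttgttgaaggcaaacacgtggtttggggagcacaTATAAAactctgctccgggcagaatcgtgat
Inhba: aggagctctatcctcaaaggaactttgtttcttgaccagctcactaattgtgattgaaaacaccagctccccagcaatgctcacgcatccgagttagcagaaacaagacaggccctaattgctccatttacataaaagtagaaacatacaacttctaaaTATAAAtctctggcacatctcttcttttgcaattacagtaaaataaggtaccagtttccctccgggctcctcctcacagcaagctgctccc
Tgfbr1: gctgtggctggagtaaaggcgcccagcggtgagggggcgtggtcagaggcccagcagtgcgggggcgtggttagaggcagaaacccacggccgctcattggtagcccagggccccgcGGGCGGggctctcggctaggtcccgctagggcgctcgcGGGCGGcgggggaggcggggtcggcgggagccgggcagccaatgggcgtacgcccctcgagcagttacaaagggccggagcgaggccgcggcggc
Tgfbr2: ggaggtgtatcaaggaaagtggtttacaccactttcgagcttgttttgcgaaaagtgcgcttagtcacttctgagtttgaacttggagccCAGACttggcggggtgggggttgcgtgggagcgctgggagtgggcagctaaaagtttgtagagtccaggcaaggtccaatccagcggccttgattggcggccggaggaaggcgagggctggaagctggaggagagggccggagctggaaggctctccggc
TATAAA was found in both ligand promoters shown, with its first base at -31 in Tgfb2 and at -91 in Inhba, and in neither receptor promoter. It occurs in 13% of the 27025 promoters in the table. CAGAC was found at 2 places in Tgfb2 and 1 in Tgfbr2 (42.1% of promoters hold it), and GGGCGG at 2 places in Tgfbr1 (32.9%). TGANTCA, an AP-1 string held by 6.87% of promoters, was in none of the 4. The GC content was 53.6% in Tgfb2, 43.2% in Inhba, 74.8% in Tgfbr1 and 58.4% in Tgfbr2, against a median of 52% over all promoters. The promoter of the ligand Tgfb1, not shown, held no TATAAA and GGGCGG at 5 places, with a GC content of 75.2%. These matches describe letters in this window and were not tested for use.

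The genes of the members lie on 7 chromosomes of GRCm38 and are all protein coding. Tgfb1 is at chr7:25687002-25705077, Tgfb2 at chr1:186622792-186705989, Tgfb3 at chr12:86056745-86079041 and Inhba at chr13:16011851-16031621. Tgfbr1 is at chr4:47353222-47414931, Tgfbr2 at chr9:116084293-116175360, Smad3 at chr9:63646767-63757994, Smad7 at chr18:75367529-75395935 and Tgfbi at chr13:56609523-56639562. Tgfb2, Tgfb3 and Inhba overlap genes on the opposite strand, of which only Ttll5, across from the 3′ end of Tgfb3, also had values. Reads were counted by strand.

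T-PNU and T-DM1, both trastuzumab conjugates, were compared first because over the 24 samples no other comparison moved more than 1 of the genes. Of the 9, 5 passed a limma test with Benjamini-Hochberg adjustment over all genes at 0.05. The ligands Tgfb2, Tgfb3 and Inhba were lower in T-PNU and the receptors Tgfbr1 and Tgfbr2 were higher. The background was large, since 29.8% of all genes passed in this comparison. The same 5 passed over the 20 samples, with 39.9% of genes. In bulk RNA, fewer cells of a type and less RNA per cell cannot be told apart, and this holds for every difference below.

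Tgfb2, a ligand made mainly by epithelial and stromal cells, had levels of 5.99, 6.39, 6.57, 6.60, 6.79 and 7.09 in T-PNU and of 7.18, 7.30, 7.44, 7.68, 7.73 and 7.78 in T-DM1. Every T-PNU value was below every T-DM1 value. The log2 difference was -0.95 ± 0.28 (SE; 0.518 times the T-DM1 level, limma adjusted p = 0.0145). Untreated samples ran from 6.08 to 7.88 and trastuzumab samples from 6.42 to 8.15, and the lowest pair in each was the one absent from the heatmaps.

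Tgfb3, a TGF-beta isoform of mesenchymal tissue, had levels of 9.23, 9.33, 9.50, 9.76, 9.85 and 10.11 in T-PNU and of 10.03, 10.08, 10.17, 10.33, 10.35 and 10.52 in T-DM1. The groups overlapped at 1 T-PNU sample, A2, which lay above the lowest T-DM1 samples. The log2 difference was -0.62 ± 0.16 (SE; 0.653 times, limma adjusted p = 0.00781).

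Inhba had levels of 10.56, 10.82, 10.85, 10.90, 11.12 and 11.19 in T-PNU and of 11.01, 11.49, 11.54, 11.61, 11.68 and 11.69 in T-DM1. The overlap came from the single low T-DM1 sample G3. The log2 difference was -0.60 ± 0.17 (SE; 0.660 times, limma adjusted p = 0.0123).

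Tgfbr1, the type I receptor kinase, had levels of 11.90, 12.03, 12.06, 12.13, 12.27 and 12.44 in T-PNU and of 11.35, 11.44, 11.47, 11.48, 11.68 and 11.83 in T-DM1. The groups did not overlap. The log2 difference was 0.60 ± 0.11 (SE; 1.51 times, limma adjusted p = 0.00139), the smallest adjusted p among the members.

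Tgfbr2, the ligand-binding receptor, had levels of 13.31, 13.32, 13.36, 13.37, 13.43 and 13.57 in T-PNU and of 12.94, 12.97, 13.02, 13.05, 13.15 and 13.18 in T-DM1. Here too the groups did not overlap, although the difference was modest, 0.34 ± 0.074 on the log2 scale (SE; 1.27 times, limma adjusted p = 0.0032). Groups that do not overlap were thus seen for 3 of the 9 members and for 13.2% of all genes. For these 3 the two-sided exact permutation p was 0.00216, the smallest that 6 against 6 samples allow.

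The other members had no detectable difference between T-PNU and T-DM1. The log2 difference was 0.07 for Tgfb1 (95% interval -0.16 to 0.31), -0.01 for Smad3 (-0.20 to 0.18), 0.17 for Smad7 (-0.36 to 0.70) and -0.24 for Tgfbi (-0.63 to 0.15). For the last 2 these intervals are wide enough to hold differences as large as that of Tgfbr2. The limma adjusted p-values ran from 0.336 to 0.940. The 5 calls held in all 24 fits that left out 1 sample each.

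**Figure D2:**
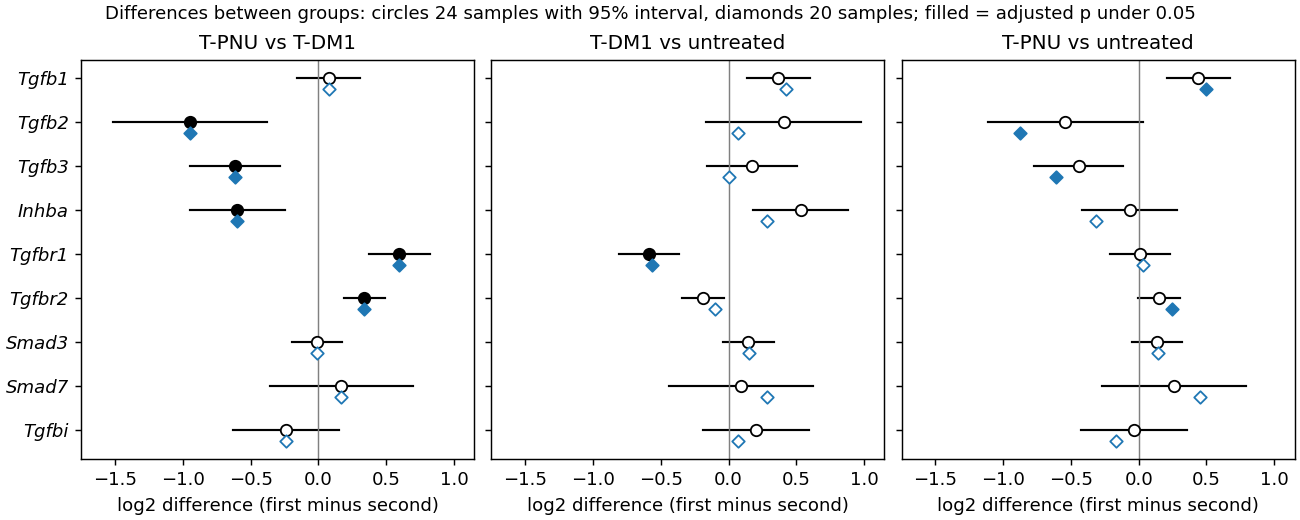
Log2 difference between groups (horizontal axes, first group minus second) for each of the 9 TGF-beta genes in 3 comparisons; circles with 95% intervals are from 24 samples, diamonds from 20 samples, and filled symbols have a limma adjusted p under 0.05. T-PNU vs T-DM1 has the same 5 filled genes in both, while T-PNU vs untreated has none with 24 samples and 4 with 20.

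Markers of other cells moved with these differences. Of the 8 fibroblast and stromal markers (Col1a1, Col1a2, Col3a1, Dcn, Lum, Pdgfra, Pdgfrb and Thy1), 6 were lower and 0 higher in T-PNU than in T-DM1 at the same threshold. Over the 20 samples 6 were lower and 1 higher. The summed level of the 8 ran from 14.7 to 16.0 in T-PNU and from 16.5 to 17.1 in T-DM1, with no overlap. This sum is mostly the collagens Col1a2, Col3a1 and Col1a1, which are also listed as TGF-beta targets below. It therefore reads collagen RNA more than a number of stromal cells. The mean of Lum was 7.45 in T-PNU and 7.44 in T-DM1. Thy1 had its highest group mean in T-PNU (11.10, against 10.33 in T-DM1), as the T cell marker sum did (13.45 against 12.46). Ptprc moved against the stromal sum, with 14.7 to 15.5 in T-PNU and 14.0 to 14.6 in T-DM1. Also higher in T-PNU were 5 of 10 macrophage and monocyte, 3 of 3 NK cell and 2 of 3 mast cell markers. So were 2 of 4 regulatory T cell, 2 of 5 dendritic cell, 2 of 6 neutrophil and 2 of 4 endothelial markers. Of the T cell markers 0 of 8 passed, and 4 of 8 were higher over the 20 samples. Of 3 platelet markers 2 were lower. No marker was listed at 0. Over the 24 samples, which share group and cell makeup, Tgfb2, Tgfb3 and Inhba had Pearson correlations of 0.79, 0.79 and 0.85 with the stromal sum and of -0.87, -0.86 and -0.85 with Ptprc (Spearman 0.74, 0.78 and 0.87, and -0.82, -0.85 and -0.82). Tgfbr1 and Tgfbr2 had -0.72 and -0.83 with the stromal sum (Spearman -0.71 and -0.84). With the sum of 5 epithelial or tumor cell markers, Pearson was 0.76, 0.72 and 0.69 for Tgfb2, Tgfb3 and Inhba. It was -0.63 and -0.80 for Tgfbr1 and Tgfbr2. This epithelial sum ran from 12.4 to 13.6 in T-PNU and from 13.5 to 14.1 in T-DM1. It is mostly Krt8, with a mean of 12.52 in T-PNU and 13.48 in T-DM1. Of its 5 markers 1 passed as higher and 1 as lower in T-PNU. Krt8 and Krt18 had lower means in T-PNU. Epcam (8.00 against 7.16), Krt19 (9.57 against 9.45) and Krt7 (8.04 against 7.94) had higher ones, so the sum does not stand for all of its markers. The part of cell makeup in the 5 differences was not tested.

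**Figure D3:**
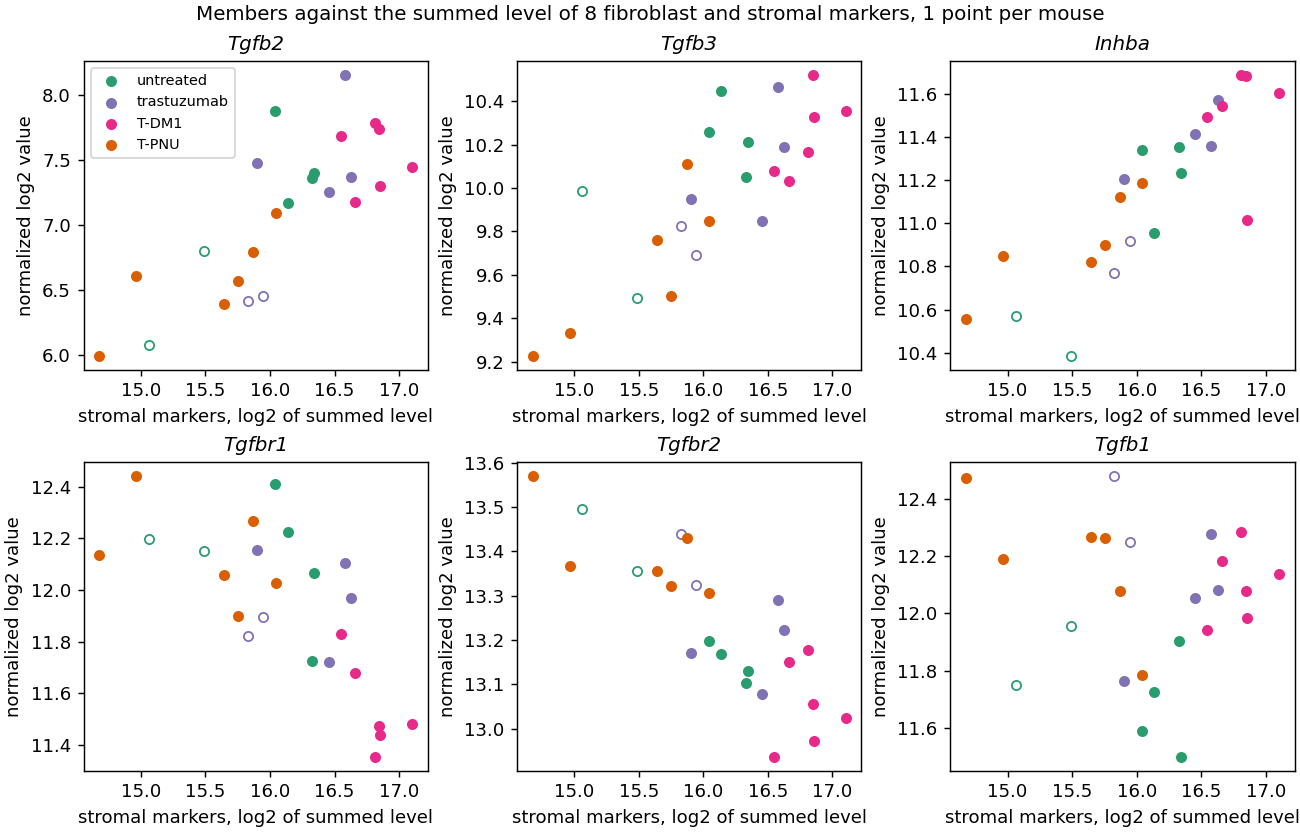
Normalized log2 level of 6 TGF-beta genes (vertical axes) against the log2 of the summed level of 8 fibroblast and stromal markers (horizontal axes), 1 point per mouse, colored by group, with open points for the 4 samples not shown in the study's heatmaps. The sum is mostly the collagens Col1a2, Col3a1 and Col1a1. Tgfb2, Tgfb3 and Inhba are higher and Tgfbr1 and Tgfbr2 lower where it is high. Tgfb1 has no such slope with this sum (Pearson -0.11).

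Tgfb1 differed among the groups in another way. The 6 untreated levels were 11.50, 11.59, 11.72, 11.75, 11.90 and 11.96. The levels were 11.76, 12.05, 12.08, 12.25, 12.28 and 12.48 after trastuzumab and 11.94, 11.99, 12.08, 12.14, 12.18 and 12.28 after T-DM1. After T-PNU they were 11.78, 12.08, 12.19, 12.26, 12.27 and 12.47. In each treated group 5 of 6 values were above every untreated value. The limma F test across the 4 groups gave an adjusted p of 0.0237, with 18.8% of all genes passing that test. No single treatment passed against untreated: the log2 difference was 0.44 for T-PNU (adjusted p = 0.0634), 0.37 for T-DM1 (0.0527) and 0.41 for trastuzumab (0.126). The treated groups differed from each other by at most 0.07 on the log2 scale. Over the 24 samples Tgfb1 had a Pearson correlation of -0.75 with the sum of 4 proliferation markers (Spearman -0.69). That sum averaged 14.52 in untreated, 14.37 in trastuzumab, 14.08 in T-DM1 and 14.00 in T-PNU samples. With the dendritic, T and B cell sums Pearson was 0.65, 0.59 and 0.58, and with Ptprc 0.32 and the macrophage sum -0.17. The part of cell makeup in the Tgfb1 levels was not tested. The F test also passed for Tgfb3 (adjusted p = 0.0407), Inhba (0.0437), Tgfbr1 (0.00501) and Tgfbr2 (0.0205), 5 members in all, and over the 20 samples for Tgfb2 as well, 6 in all with 40.8% of genes. It rested on single samples for Tgfb1, which passed in 22 of the 24 fits without 1 sample (adjusted p = 0.0618 without untreated F1 and 0.0536 without A1), and for Tgfb3 and Inhba, which passed in 14 and 11 of them.

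Against untreated tumors T-DM1 changed 1 member. Tgfbr1 fell, from 11.73, 12.06, 12.15, 12.20, 12.23 and 12.41 in untreated samples to the T-DM1 levels given above. The groups overlapped through untreated E1, which was below 1 T-DM1 sample. The log2 difference was -0.59 ± 0.11 (SE; 0.666 times, limma adjusted p = 0.00536; exact permutation p = 0.00433, unadjusted), and it passed in all 24 fits without 1 sample. In this comparison 6.27% of all genes passed. Over the 20 samples Tgfbr1 was again the 1 member that passed (-0.56, adjusted p = 0.0318), with 2.01% of genes. Inhba lay 0.53 higher in T-DM1 (adjusted p = 0.0595) and 0.28 higher over the 20 samples (adjusted p = 0.259). The stromal sum ran from 15.1 to 16.3 in untreated and from 16.5 to 17.1 in T-DM1 samples, again with no overlap. Of its 8 markers 3 were higher in T-DM1 over the 24 samples and 1 over the 20. The macrophage and monocyte sum averaged 18.38 in untreated and 17.89 in T-DM1. Of these 10 markers 1 was higher and 1 lower (1 and 3 over the 20 samples). Tgfbr1 had a Pearson correlation of 0.56 with that sum over the 24 samples (Spearman 0.51). The part of these markers was not tested.

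The comparison of T-PNU with untreated tumors depended on which samples entered. Over 24 samples limma passed 0 of 9 members, 2 of them with an unadjusted p under 0.05, and 0.188% of all genes. The exact permutation test gave an unadjusted p under 0.05 for the same number, Tgfb1 and Tgfb3. By contrast, 4 members passed over the 20 samples, with 31.1% of genes. Cell markers moved with them: in T-PNU over the 20 samples Ptprc, 8 of 8 T cell, 4 of 4 regulatory T cell and 3 of 3 NK cell markers were higher, 4 of 8 stromal markers lower and 1 higher, and 4 of 4 proliferation markers lower. Over 24 samples none of these passed. The untreated samples left out of the 20, B1 and C1, had the 2 highest Ptprc levels of their group (15.23 and 15.24). Their T cell marker sums (14.40 and 13.19) were also the 2 highest. They held the 2 lowest untreated values of Tgfb2 and Tgfb3 and the 2 highest of Tgfbr2. Leaving them out moves these untreated means away from T-PNU. The part of the cell markers was not tested. Over the 20 samples Tgfb1 was 0.50 higher in T-PNU (adjusted p = 0.00704) and Tgfb2 0.88 lower (a log2 difference of -0.88, adjusted p = 0.00661). Tgfb3 was lower by a difference of -0.61 (adjusted p = 0.00943) and Tgfbr2 0.24 higher (adjusted p = 0.0121). A share of 4 in 9 stands beside that 31.1%. The 24-sample differences had the same signs, at 0.44, -0.54, -0.44 and 0.15. Leaving out untreated C1 alone brought 3 members past the threshold (Tgfb1, Tgfb2 and Tgfbr2) and 2929 genes instead of 32. C1 had the lowest Tgfb2 value of the untreated group (6.08) and the highest Tgfbr2 value (13.50).

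Trastuzumab alone had no member past the threshold against untreated over either set of samples. By limma 0 of 9 passed over 24 samples, with 1 (Tgfb1) at an unadjusted p under 0.05 and 1 by exact permutation, where 0.259% of all genes passed. Over the 20 samples 0 of 9 passed, with 1 unadjusted, beside 0% of genes, although 865 genes had an unadjusted p under 0.05. T-PNU against trastuzumab gave 0 of 9 over 24 samples (2 unadjusted, 0 by exact permutation, with 0.00588% of genes) and 4 of 9 over the 20 samples, where 28% of genes passed. Those 4 were Tgfb2 (-0.99, adjusted p = 0.00702), Tgfb3 (-0.48, 0.0300), Inhba (-0.48, 0.0177) and Tgfbr2 (0.20, 0.0301). In the same fit Ptprc, 5 of 8 T cell and 4 of 4 regulatory T cell markers were higher in T-PNU. Of the stromal markers 5 of 8 were lower with 1 higher. The part of these markers was not tested. The trastuzumab samples left out of the 20, E2 and B3, held the 2 lowest trastuzumab values of Tgfb2, Tgfb3 and Inhba. They held the 2 highest of Tgfbr2, of Ptprc (15.08 and 14.91) and of the T cell marker sum (13.99 and 13.55). Leaving them out moves these trastuzumab means away from T-PNU. T-DM1 against trastuzumab gave 0 of 9 over both sets, with 3 at an unadjusted p under 0.05 over 24 samples, 2 over 20 and 4 by exact permutation (Tgfbr1, Tgfbr2, Smad7 and Tgfbi), beside 0.647% and 0.812% of genes.

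The order of Tgfbr1 levels was T-DM1 (mean 11.54 ± 0.18, SD, n = 6), trastuzumab (11.94 ± 0.17), untreated (12.13 ± 0.23) and T-PNU (12.14 ± 0.19). Over the 24 samples no neighbors in the order of group means passed the limma test for Tgfbr1, Tgfbr2, Tgfb2, Tgfb3 or Inhba. For Tgfbr1, T-DM1 and trastuzumab came nearest with a log2 difference of -0.40 (adjusted p = 0.0810). Tgfbr2 followed a like order with means of 13.05, 13.24, 13.25 and 13.39, untreated and trastuzumab changing places. Tgfb2 ran the other way, from T-PNU (6.57 ± 0.37) over untreated (7.11 ± 0.62) and trastuzumab (7.18 ± 0.66) to T-DM1 (7.52 ± 0.25).

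Tgfb3 and Inhba shared the ends of that order. Tgfb3 ran from T-PNU (9.63 ± 0.34) over trastuzumab (9.99 ± 0.28) and untreated (10.08 ± 0.33) to T-DM1 (10.25 ± 0.19), and Inhba from T-PNU (10.91 ± 0.23) over untreated (10.97 ± 0.41) and trastuzumab (11.21 ± 0.31) to T-DM1 (11.50 ± 0.25).

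Smad3, which carries the receptor signal to the nucleus, and Smad7, which blocks the type I receptor and is itself induced by TGF-beta, passed no limma test after adjustment over either set of samples. By the exact permutation test Smad7 was higher in T-DM1 than in trastuzumab samples at an unadjusted p of 0.0346, with 4 of 6 values above every trastuzumab value. Smad3 had group means from 11.04 ± 0.19 (untreated) to 11.21 ± 0.11 (trastuzumab) and kept within 10.83 to 11.50 in all samples. Smad7 had a median of 11.52 in untreated, 11.39 in trastuzumab, 11.72 in T-DM1 and 11.66 in T-PNU. Untreated B1 (12.85), T-PNU C2 (12.89) and T-PNU B2 (12.41) were the highest, and the others lay between 11.11 and 12.11. Across the 24 samples Smad7 had a Pearson correlation of 0.81 with the summed level of 5 dendritic cell markers (Spearman 0.77), a sum that is nearly all Ccr7, which lymphocytes also express. It had 0.73 with 8 T cell markers, 0.66 with 4 B cell markers and -0.72 with 4 proliferation markers (Spearman 0.59, 0.68 and -0.67). The T cell sum was 14.4 in B1 and 14.7 in C2. Both B1 and C2 were among the libraries with the lowest weights. Tgfbi ran from 13.90 in untreated B1 to 15.22 in T-DM1 C3, with group means between 14.60 ± 0.31 (trastuzumab) and 15.00 ± 0.26 (T-DM1).

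Within the T-PNU group, the study marks samples G1 and A2 as low-responding. They held the 2 highest levels of 4 members, Tgfb2 (7.09 and 6.79), Tgfb3 (9.85 and 10.11), Inhba (11.19 and 11.12) and Tgfbi (14.85 and 15.09), and the 2 lowest of Tgfb1 (11.78 and 12.08) and Smad7 (11.34 and 11.43). They also had the 2 highest stromal sums of the group (16.0 and 15.9) and the 2 highest proliferation sums (14.42 and 14.38). Their Ptprc level (14.75 and 14.82) and their T cell (12.4 and 12.5), regulatory T cell, B cell and dendritic cell marker sums were the 2 lowest. With 2 samples and a division whose definition is not stated, no test was made.

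The members also varied with each other. Over the 24 samples the Pearson correlation was 0.81 between Tgfb2 and Inhba, 0.75 between Tgfb2 and Tgfb3 and 0.67 between Tgfb3 and Inhba, and 0.77, 0.61 and 0.59 once group means were removed. Tgfb2 and Inhba ran against Tgfbr2, at -0.75 and -0.72 (-0.60 and -0.56 within groups). Tgfb1 went with none of the other ligands (-0.34, -0.39 and -0.11 with Tgfb2, Tgfb3 and Inhba) and over all samples most with Smad3 (0.64, and 0.54 within groups), while within groups it went most with Smad7 (0.65) and Tgfbr2 (0.61). Tgfbr1 and Tgfbr2 had 0.59 over all samples but 0.12 within groups.

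The genes most like each member over the 24 samples were sought among 8418 named genes, those in the upper part of the range of mean levels. For Tgfb2 the nearest were Hmgcs1, a sterol synthesis enzyme (Pearson 0.95, Spearman 0.95), and Has2, a hyaluronan synthase (0.94 for both). For Inhba they were Itga5, the fibronectin receptor subunit (0.93 and 0.92), Spry2 (0.92 and 0.95) and Ltbp2 (0.91 and 0.96), and for Tgfb3 Tmco3 (0.93 for both) and Mical2 (0.93 and 0.89). For Tgfb1 the nearest was Ccdc97 (0.94 and 0.92), which lies 6028 bases beyond its 3′ end on the opposite strand. For Tgfbr1 the nearest was Xist, the RNA of the inactive X chromosome (0.93 and 0.87), and for Tgfbr2 Adcy7, an adenylyl cyclase (0.93 and 0.91). Smad7 was nearest to Zc3hav1l (0.96 and 0.91) and also close to Tgif2, a repressor of TGF-beta targets (0.94 and 0.82). Smad3 was nearest to Setd7 (0.86 and 0.79) and Tgfbi to Smim3 (0.88 and 0.84).

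Other genes of the pathway were read from 6 lists by role, 77 genes of which 74 had values. Between T-PNU and T-DM1, 4 were higher and 33 lower in T-PNU at an adjusted p under 0.05, where 29.8% of all genes passed, with a median log2 difference of -0.37 against 0.03 over all genes. It was 10 and 39 over the 20 samples, where 39.9% of all genes passed. Some list genes, among them Thbs1, Smad2 and Il11, also stand in a gene panel that the study shows for these samples. Col1a1, Col1a2, Col3a1 and Dcn are at once stromal markers.

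Of the 14 genes for latency and activation, 0 were higher and 8 lower in T-PNU, with a median of -0.66. All 4 latent TGF-beta binding proteins, which anchor the latent complex in the matrix, were among them. Ltbp4 had a mean of 7.73 ± 0.57 (SD, n = 6) in T-PNU and 9.07 ± 0.37 in T-DM1 (log2 difference -1.35, limma adjusted p = 0.00235), and Ltbp3 differed by -1.15, Ltbp2 by -1.12 and Ltbp1 by -0.80. The integrin subunits Itgb8 (-1.14) and Itgb6 (-0.80), which pair with Itgav to release TGF-beta, the protease Mmp2 (-1.20) and Thbs1 (-0.39) made up the rest. Itgav did not pass (-0.09, adjusted p = 0.680), nor did Lrrc32 and Nrros, which display latent TGF-beta on regulatory T cells and on myeloid cells (0.39 and 0.32, adjusted p = 0.359 and 0.0903), although Nrros passed over the 20 samples (adjusted p = 0.00776).

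Among 8 related ligands, 0 were higher and 3 lower, Bmp4 (-1.10), Bmp1, which is a procollagen protease in spite of its name (-1.04), and Inhbb (-0.49). Of the 9 other receptors and coreceptors, Eng, the endoglin coreceptor (0.49), and the activin receptor Acvr1b (0.26) were higher, and Bmpr1a (-0.77), Acvr1 (-0.59) and Acvr2b (-0.53) lower. Of 5 other Smads, the BMP-pathway genes Smad6 (-0.55) and Smad1 (-0.37) were lower. Smad2 and Smad4, which work with Smad3, did not pass (0.03 and -0.02, adjusted p = 0.725 and 0.904).

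Of 13 inhibitors and regulators, Tgif1, a corepressor of Smads, was higher (0.29), and Fstl3, which traps activin (-1.27), Dcn, a proteoglycan that binds TGF-beta (-0.65), and Smurf1, a ubiquitin ligase for Smads and receptors (-0.31), were lower. Of 25 other targets, 1 was higher and 14 lower, with a median of -0.58. The matrix genes Col1a1 (12.40 ± 0.65 in T-PNU and 14.01 ± 0.28 in T-DM1, difference -1.62, limma adjusted p = 0.00139), Col3a1 (-1.38), Col1a2 (-1.36) and Fn1 (-1.27) were lower, as was the cytokine Il11 (9.82 ± 0.71 and 11.42 ± 0.35, difference -1.61, adjusted p = 0.0032). The repressor Snai1 (-1.30), the matricellular gene Ccn2 (-1.20), Timp1 (-1.14) and Acta2, the actin of myofibroblasts (-1.06), were also lower. Tagln, a smooth muscle gene, was the 1 target that was higher (0.58, adjusted p = 0.0169). Targets used in T cells and cell cycle arrest did not pass, with 0.66 for Itgae (adjusted p = 0.0773, and 0.0345 over the 20 samples) and 0.01 for Cdkn1a (0.950).

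**Figure D4:**
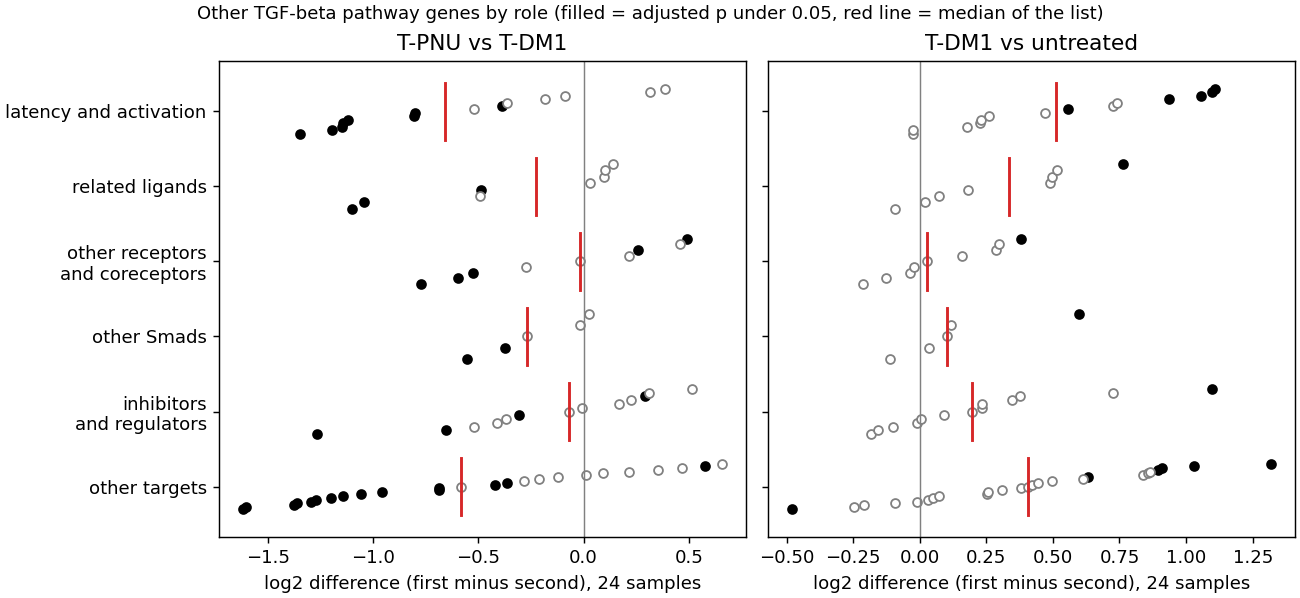
Log2 difference (horizontal axes, first group minus second, 24 samples) of 74 other TGF-beta pathway genes arranged by role, with 1 point per gene, filled where the limma adjusted p is under 0.05, and a red line at the median of each list. Latency genes and targets lie mostly below 0 in T-PNU vs T-DM1 (medians -0.66 and -0.58) and above 0 in T-DM1 vs untreated (0.51 and 0.41); the horizontal scales differ.

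In T-DM1 against untreated tumors 14 of the 74 genes rose and 1 fell, where 6.27% of all genes passed, with a median of 0.25 against -0.02 over all genes. Over the 20 samples, where 2.01% of all genes passed, 3 rose and 1 fell. Col1a1 rose by 1.32, Ltbp4 by 1.11, Mmp9 by 1.10, Dcn by 1.10, Mmp2 by 1.06, Snai1 by 1.03, Ltbp3 by 0.94, Col3a1 by 0.91 and Junb by 0.89 on the log2 scale. Gdf15 (0.76), Id3 (0.63), Smad6 (0.60), Thbs1 (0.56) and Acvr2b (0.38) were the others. Cdkn2b, an inhibitor of the cell cycle that TGF-beta induces in epithelium, fell by 0.48. Of these, Mmp9 (0.96), Dcn (0.99) and Id3 (0.68) rose over the 20 samples as well, and Cdkn2b fell. The 2 comparisons share the T-DM1 samples. In T-DM1 against trastuzumab Cdkn2b was the 1 gene that passed, and it fell.

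In T-PNU against untreated tumors 0 of the 74 genes passed by limma over 24 samples, with 24 at an unadjusted p under 0.05, and over the 20 samples 10 rose and 24 fell, where 31.1% of all genes passed. Those that fell included Il11 (-1.22, adjusted p = 0.00712), Fn1 (-1.14, 0.00943) and Acta2 (-0.89, 0.00917), and those that rose included Lrrc32 (0.87, 0.0135), Bambi, a decoy receptor (0.73, 0.0224), and Ski, a Smad corepressor (0.64, 0.0322). T-PNU against trastuzumab gave 0 over 24 samples (28 unadjusted) and 5 higher with 32 lower over the 20 samples, where 28% of all genes passed. Trastuzumab against untreated gave 0 over both, with 16 and 5 at an unadjusted p under 0.05.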

How the data were processed

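CD45+ cells were enriched from 24 EMT6-hHER2 tumors and sequenced as single-end reads. Per the labels and the study's methods, the authors aligned the reads with STAR (2.4.2a) to mm10, counted reads per gene by strand with featureCounts (Subread 1.5.0), removed genes averaging fewer than 5 counts and used DESeq2. The deposited values are normalized log2 expression levels for 16996 genes. The transformation is not given in the sources used here, no counts were analysed, and the depth per sample is unknown, so no interval covers counting error.

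Groups and codes came from the sample labels. The limma package (3.58.1, R 4.3.3) fitted the 4 groups in 1 linear model (eBayes with a trend) with no covariate, and p-values were adjusted by Benjamini-Hochberg over all genes and read at 0.05. The labels give 1 library per mouse, so p-values measure the spread between mice. Two-sided exact permutation tests were computed for 54 member comparisons, unadjusted. Correlations between samples are descriptions. Sums over markers add the values on the linear scale. Positions, exon lengths and overlaps are from GENCODE M21 on GRCm38, where 99.6% of the identifiers were found, and promoters from RefSeq on GRCm38.p6, read for 7 of the 9 members (those of Tgfb3 and Smad7 were not analysed here).

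The 9 members are always named. Pathway genes were named where they passed in a comparison, or as the largest or smallest difference of their list, and a few that did not pass were named after their values were seen. Not every gene that this rule covers is reported here. Members, lists and tests were chosen with earlier results of these data known. Of 77 pathway and 77 marker genes, 7 had no values (Inha, Smad9, Nog, Gp9, Plin1, Myh4 and Hbb-bs). Alternatives were the 20 samples of the heatmaps, quantile normalization, only genes whose mean exceeds the median, only the 2 groups compared, sample weights, the study's thresholds (adjusted p under 0.01, fold above 2) and each sample left out. The fits were tested on simulated data, with genes drawn independently and libraries of equal quality. That test does not cover libraries that differ in weight, as those here do. Figures used Python 3.11.15 and matplotlib 3.10.9.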

Additional observations from a re-analysis of the deposited data

Results flagged for a closer look

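Of 36 sets of 6 values (9 members in 4 groups), 2 held a sample far from the others by Dixon's test, and chance alone flags about 1 set in 20. Inhba in T-DM1 sample G3 was 11.01, where the other 5 lay between 11.49 and 11.69. Smad7 in untreated sample B1 was 12.85, where the other 5 lay between 11.11 and 11.64.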

How the results depend on the processing

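The calls of T-PNU against T-DM1 (5 members) were the steadiest. They were 5 in each fit without 1 sample, over the 20 samples, and with quantile normalization, sample weights or only the 2 groups. Restriction to genes with a mean above the median gave 4, since Tgfb2 is not among them, and the study's thresholds gave 0, since no member differed by over 2-fold. No paired analysis was possible because the labels give sample codes and no replicate numbers that groups share. The depth is unknown, so what depth limits could not be read.

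Other counts of genes past the threshold moved. Over the 20 samples they were 5279 (T-PNU vs untreated), 341 (T-DM1 vs untreated), 0 (trastuzumab vs untreated), 4765 (T-PNU vs trastuzumab) and 6937 (F test), with 4 members in each T-PNU comparison. Quantile normalization gave 0 for T-PNU vs untreated and vs trastuzumab (4214 and 3185 unadjusted) and 2 members for T-DM1 vs untreated. Genes above the median gave 90, 27 (trastuzumab vs untreated), 0 (T-PNU vs trastuzumab, 1917 unadjusted), 3003 (T-PNU vs T-DM1), 4 (T-DM1 vs trastuzumab), 1962 (any difference among the 4 groups) and 2 members in T-DM1 vs untreated. With only the 2 groups the counts were 0 for T-PNU and trastuzumab vs untreated and T-PNU vs trastuzumab (3133, 1065 and 2994 unadjusted), 621 with 2 members for T-DM1 vs untreated and 424 with 1 member for T-DM1 vs trastuzumab. Sample weights gave 5827 with 4 members (T-PNU vs untreated), 3297 with 3 (T-DM1 vs untreated), 195 with 1 (trastuzumab vs untreated), 2256 with 1 (T-PNU vs trastuzumab), 1232 with 2 (T-DM1 vs trastuzumab) and 8652 (F test). The study's thresholds gave 0, 26, 0, 0, 325 and 12 in the order T-PNU, T-DM1 and trastuzumab vs untreated, T-PNU vs trastuzumab, T-PNU vs T-DM1 and T-DM1 vs trastuzumab, and 0 members for T-DM1 vs untreated. The cause was not tested beyond the construction of each setting.

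Without 1 sample each, T-PNU vs untreated ran from 0 to 2929 genes (2929 without C1) and 0 to 3 members, T-DM1 vs untreated from 419 to 1626 and 1 to 3, trastuzumab vs untreated from 0 to 97 and 0 to 1, T-PNU vs trastuzumab from 0 to 81, T-PNU vs T-DM1 from 3139 (without H1) to 5881, T-DM1 vs trastuzumab from 32 to 353 and 0 to 1, and the F test from 1437 to 4776 and 3 to 6.

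Signs changed only for differences that passed no test. Over the 20 samples these were Smad3 (0.0115) and Tgfbi (-0.0037) in T-PNU vs trastuzumab and Tgfb1 (0.0575), Tgfb2 (-0.0415) and Smad3 (0.0217) in T-DM1 vs trastuzumab. Quantile normalization gave -0.0059 for Tgfbr1 in T-PNU vs untreated and -0.0038 for Tgfb1 in T-PNU vs trastuzumab, and sample weights -0.0113 for Tgfbr1 in T-PNU vs untreated and 0.0055 for Tgfb1 in T-DM1 vs trastuzumab. Without 1 sample the ranges that crossed 0 were, vs untreated, Inhba -0.18 to 0.0098, Tgfbi -0.21 to 0.0475 and Tgfbr1 -0.0715 to 0.066 for T-PNU, Smad7 -0.0145 to 0.33 for T-DM1, and Smad7 -0.34 to 0.0094, Tgfb2 -0.14 to 0.23 and Tgfbr2 -0.0243 to 0.0634 for trastuzumab. They were Smad3 -0.0746 to 0.0233 and Smad7 -0.0304 to 0.28 for T-PNU vs T-DM1, Tgfb1 -0.0521 to 0.10 for T-PNU vs trastuzumab, and Tgfb1 -0.13 to 0.0167 and Smad3 -0.0616 to 0.0065 for T-DM1 vs trastuzumab.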
